A study of Mus musculus with 12 samples.

Results

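The mitosis and G2/M genes are 36 named genes that act from the entry into mitosis to the separation of daughter cells. They were chosen by symbol, and any row of the gene tables whose name field holds one of the symbols was taken, which gave 36 of the 23212 gene features of the series. The study compared T follicular helper (TFH) cells, the CD4 T cells that help B cells in germinal centres, with non-TFH CD4 T cells from mouse spleen, in mice with and without Ets1, a transcription factor of T and B lymphocytes, in the T lineage. CD4 T cells positive for CXCR5 and PD-1 were sorted as TFH cells, and those negative for both as non-TFH cells, and polyadenylated RNA was sequenced on stranded libraries. The 4 groups of 3 libraries each were TFH cells of CD4-cre Ets1 fl/fl mice (cKO), TFH cells of Ets1 fl/fl mice without Cre (WT), non-TFH cells of the cKO mice and non-TFH cells of the WT mice. Both genotypes carry the floxed Ets1 alleles on the C57BL/6 strain, and CD4-cre removes the floxed segment in all T cells that passed through a CD4-expressing stage. Age, immunisation, and whether the 3 libraries of a group came from separate mice are not stated in the labels, so p-values measure only the spread between these libraries.

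Mitosis is started by the kinase CDK1 with its A and B type cyclins, and is driven on by the Polo and Aurora kinases. The spindle checkpoint delays the separation of chromosomes until all kinetochores are attached to the spindle. The anaphase-promoting complex (APC/C) then marks cyclin B and securin for destruction. Transcripts of these genes are low in resting lymphocytes and accumulate in the G2 and M phases of dividing cells, partly through promoter elements called the cell cycle genes homology region (CHR), bound by the MuvB complex with B-Myb and FOXM1, and the CCAAT box, bound by NF-Y.

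The promoters were examined because both elements are known from genes of this kind, and 30 of the 36 members had a promoter entry in the RefSeq table for GRCm38.p6, the patch release of mm10. Ccna2, Foxm1, Cdc25c, Aurkb, Kif20a and Tpx2 had no entry and are named only. The 6 stretches below run from 110 bases before to 20 bases after the annotated start, 5′ to 3′ on the strand of the gene. Capitals mark the CHR letters TTTGAA, read as TTCAAA on the other strand, and the CCAAT box, read as ATTGG on the other strand. They are shown because Cdk1, Ccnb2, Cdc20, Ube2c and Kif11 hold both elements close to the start, whereas Birc5 holds neither in this stretch.
Cdk1: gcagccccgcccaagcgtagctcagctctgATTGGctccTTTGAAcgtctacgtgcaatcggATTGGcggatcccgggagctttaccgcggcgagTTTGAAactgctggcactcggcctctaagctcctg
Ccnb2: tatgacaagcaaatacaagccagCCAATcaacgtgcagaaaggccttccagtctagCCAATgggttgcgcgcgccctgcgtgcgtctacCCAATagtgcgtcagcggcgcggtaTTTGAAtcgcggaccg
Cdc20: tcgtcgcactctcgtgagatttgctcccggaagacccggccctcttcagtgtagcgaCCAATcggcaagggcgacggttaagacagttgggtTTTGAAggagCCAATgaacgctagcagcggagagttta
Ube2c: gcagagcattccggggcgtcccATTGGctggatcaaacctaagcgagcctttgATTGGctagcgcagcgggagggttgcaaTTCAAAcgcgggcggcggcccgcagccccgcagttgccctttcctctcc
Kif11: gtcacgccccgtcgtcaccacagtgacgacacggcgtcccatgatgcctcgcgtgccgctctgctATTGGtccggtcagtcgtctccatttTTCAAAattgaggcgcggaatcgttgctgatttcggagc
Birc5: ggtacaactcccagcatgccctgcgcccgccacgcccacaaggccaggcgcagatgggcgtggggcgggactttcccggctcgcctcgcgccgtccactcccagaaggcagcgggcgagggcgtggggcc

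These stretches lie on the minus strand at chr10:69352893-69353022 (Cdk1), chr9:70421535-70421664 (Ccnb2) and chr4:118437324-118437453 (Cdc20), and on the plus strand at chr2:164769819-164769948 (Ube2c), chr19:37376272-37376401 (Kif11) and chr11:117849127-117849256 (Birc5). Over the whole windows, from 250 bases before to 50 bases after the start and on both strands, TTTGAA occurred in 22 of 30 members, or 73.3%, against 20.2% of the 27025 gene symbols in the table. With its first base within 50 bases of the start it occurred in 20 of 30 members, 66.7%, against 5.72% of all symbols. The CCAAT box was found in 23 of 30 members, 76.7%, against 41.1% of all symbols, and 18 of 30 members held at least 2 matches, against 13.3% of all symbols. Both elements together occurred in 19 members, 63.3%, against 7.97%. The variant TTCGAA, which reads the same on both strands and shares no match with TTTGAA, occurred in 3 of 30 members, against 1.8% of all symbols. The letters CCGGAAG, a core bound by ETS family factors, were in 7 members, 23.3%, against 9.93%. No test was made of these shares, and a match is a stretch of letters and not a measured site.

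**Figure D1:**
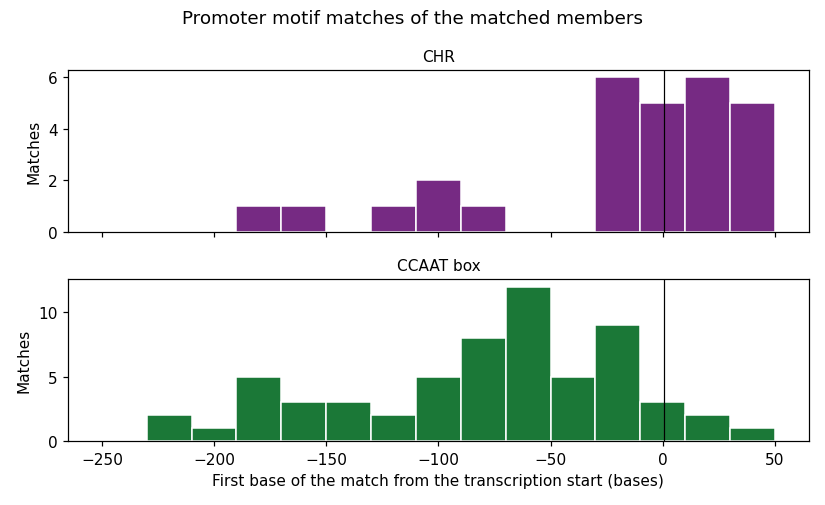
Positions of CHR (TTTGAA, top) and CCAAT box (bottom) matches in the promoter windows of the 30 matched members, on both strands. The horizontal axis is the distance of the match's first base from the annotated transcription start in bases, and the vertical axis counts matches. CHR matches crowd around the start, where 20 of the 30 members have one within 50 bases, and CCAAT matches lie mostly ahead of it.

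Before the members, the libraries themselves need a short account. The files give no read totals, and an estimate from the width of the deposited confidence bounds gave 11900000 to 15500000 fragments per library. The T cell genes Cd3e, Cd3d, Cd3g, Cd4, Cd5 and Cd28 summed to 2764 to 3369.7 FPKM in cKO and 3053 to 3176 FPKM in WT TFH libraries, and to 2024 to 2375 FPKM in cKO and 1817 to 1947 FPKM in WT non-TFH libraries. Pdcd1, which encodes PD-1, lay at 601 to 704 FPKM in cKO TFH libraries and 315 to 378 FPKM in WT TFH libraries, against 1.40 to 1.55 FPKM in cKO non-TFH libraries and 1.48 to 1.64 FPKM in WT non-TFH libraries. Ets1 transcript itself was not lower in libraries labelled cKO. It was at 222, 269.8 and 265 FPKM in the libraries labelled cKO TFH and at 169.9, 203 and 214 FPKM in those labelled WT TFH, a log2 change of 0.37 ± 0.10 (SE, limma adjusted p = 0.0148), and in non-TFH cells the log2 change was -0.03 ± 0.10 (limma adjusted p = 0.911). A value for the whole gene takes in exons outside the floxed segment, so it does not check the deletion, and cKO and WT below are the labels' groups. The Y-linked Ddx3y was listed at 0 in all 3 cKO TFH libraries and at 33.3, 2.21 and 5.25 FPKM in WT TFH libraries, against 41.6, 44.6 and 40.4 FPKM in cKO non-TFH libraries and 68.0 and 51.8 FPKM in the WT non-TFH libraries with an entry. Its values did not overlap between the TFH genotypes or between the cell types of either genotype, and its part in the results was not tested. WT TFH libraries held 12338 to 25171 assembled loci with no gene name, against 7855 to 10233 in cKO TFH libraries.

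Messenger levels are given as FPKM, fragments per length of transcript and per depth of the library, scaled between libraries by a median ratio. Since FPKM is per length, levels of different genes can be set side by side. All 36 members passed the filter of at least 1 FPKM in at least 3 of the 12 libraries. The median member was at 29.3 FPKM in cKO TFH cells, 16.9 FPKM in WT TFH cells, 2.17 FPKM in cKO non-TFH cells and 0.726 FPKM in WT non-TFH cells, taking the mean of 3 libraries for each member. In 34 of 36 members the 4 group means fell in that order. The exceptions were Cenpa, whose mean was lower in cKO than in WT non-TFH cells, and Kif20a, listed at 0 in both. Group means reached 10 FPKM in 28 members in cKO TFH cells, 25 in WT TFH cells, 2 in cKO non-TFH cells and 1 in WT non-TFH cells, and were under 1 FPKM in 8 members in cKO non-TFH cells and 23 in WT non-TFH cells. The 36 genes kept nearly the same rank of levels in both genotypes, with a Spearman rho over genes of 0.98 between cKO and WT TFH cells and 0.884 between cKO and WT non-TFH cells. These genes share their libraries and are not independent replicates.

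Among the members' values in the 12 libraries, 15 were listed at exactly 0 and 3 had no usable entry. Kif20a, a kinesin of cytokinesis, was listed at 0 in all 6 non-TFH libraries and in WT TFH replicate 2, beside 36.03, 23.5 and 23.6 FPKM in cKO TFH libraries and 13.8 and 15.6 FPKM in the other WT TFH libraries. Cdc20, the activator of the APC/C, was listed at 0 in every non-TFH library except cKO replicate 2, which had 7.61 FPKM. Such a 0 beside genes at several FPKM can be a failed estimate, so no ratio of means is given against a group that holds one. The non-TFH log2 changes of Foxm1 and Aurka below are given with their zero left out. Counts of calls, medians over members and the Kif20a change in TFH cells keep the zeros unless stated. The other zeros were Aurka and Foxm1 in WT non-TFH replicate 1 and Prc1 in WT non-TFH replicate 2. Values were missing for Ccnb2 in cKO non-TFH replicate 1 and Prc1 in cKO TFH replicate 2, where the file joins them with a neighbouring gene, and for the X-linked Kif4 in WT non-TFH replicate 1, a library without entries for most X and Y genes. The fit dropped those 3 values. Foxm1 is always listed together with the overlapping 4933413G19Rik, so its values cannot be parted from that gene.

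**Figure D2:**
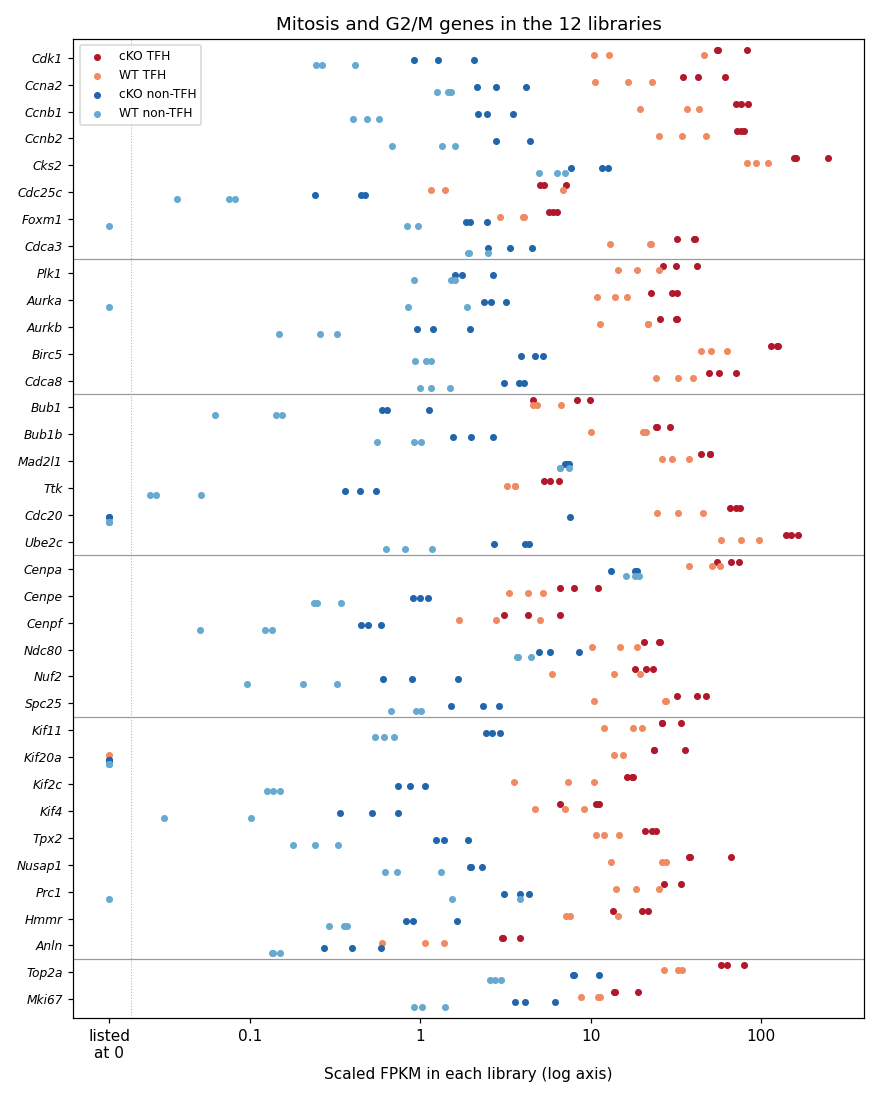
Scaled FPKM of the 36 members in the 12 libraries, on a log axis, with members down the page grouped by role (CDK1 and cyclins, Polo and Aurora kinases, checkpoint and APC/C, kinetochore, spindle and cytokinesis, chromosomes). Each point is 1 library, coloured by group, and values listed at 0 stand left of the dotted line. TFH libraries (red and orange) lie to the right of non-TFH libraries (blue) in nearly all members, and cKO points mostly to the right of WT points of the same cell type.

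In TFH cells 24 of the 36 members were higher in cKO than in WT cells, 0 were lower, and 12 did not pass the test, which was limma on log2(FPKM + 1) over all 11088 features that passed the filter, with Benjamini-Hochberg adjustment and a threshold of 0.05. Over all tested features 15.8% were called higher and 15% lower in this comparison, 30.9% in all. The members' log2 changes were all positive and lay between 0.40 for Bub1 and 1.72 for Cdk1, apart from Kif20a at 2.17 with its zero in WT TFH replicate 2, with a median of 0.88, while the median over all tested features was 0.04. In 29 of 36 members every cKO TFH library was above every WT TFH library, which held for 20.2% of all tested features. Ratios of mean FPKM, cKO over WT, had a median of 1.86 and ran from 1.34 for Cenpa to 3.26 for Anln in the 35 members with no zero. A bulk measurement cannot tell a larger share of dividing cells from more of these transcripts per dividing cell, and this holds for every comparison below.

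Of the 8 genes of CDK1, its cyclins and their regulators, 6 rose in cKO TFH cells. Cks2, a small subunit bound to CDK1 and the member with the highest mean level, had 246, 157 and 159.6 FPKM in cKO TFH libraries, against 94.0, 82.5 and 110.2 FPKM in WT TFH libraries. The groups did not overlap, and the log2 change was 0.94 ± 0.21 (SE, limma adjusted p = 0.00611). Ccnb1, the cyclin B1 that brings CDK1 to mitotic activity, stood at 83.5, 76.2 and 71.5 FPKM in cKO TFH libraries and at 36.7, 19.4 and 43.0 FPKM in WT TFH libraries, again without overlap (log2 change 1.27 ± 0.24, limma adjusted p = 0.00223). Cdk1, named after its values were seen for its central role, had 83.2, 55.2 and 55.6 FPKM in cKO TFH libraries, against 46.2, 10.5 and 12.8 FPKM in WT TFH libraries. WT replicate 1 stood far above the other 2 WT libraries but below all cKO libraries, and the log2 change was 1.72 ± 0.43 (limma adjusted p = 0.0108). That call was lost when only the 2 TFH groups were fitted, with a limma adjusted p of 0.0909.

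Cyclin A2 (Ccna2), cyclin B2 (Ccnb2) and Cdca3, a trigger of mitotic entry, rose in cKO TFH cells with log2 changes of 1.44 ± 0.28, 1.12 ± 0.24 and 0.97 ± 0.23 (SE). The remaining 2 of the 8 did not pass. Cdc25c, the phosphatase that releases CDK1 from inhibition, had 5.30, 5.08 and 7.13 FPKM in cKO TFH libraries and 1.16, 1.39 and 6.88 FPKM in WT TFH libraries. WT replicate 3 was as high as cKO libraries while the other 2 WT libraries were far lower (log2 change 0.98 ± 0.39, limma adjusted p = 0.0797). Without that library the same gene passed, with a limma adjusted p of 0.000169. Foxm1, the transcription factor of many G2 and M genes, had 5.67, 6.33 and 6.02 FPKM in cKO TFH libraries against 4.06, 2.95 and 4.04 FPKM in WT TFH libraries. The groups did not overlap, but the log2 change of 0.59 ± 0.24 did not pass (limma adjusted p = 0.0885).

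All 5 genes of the Polo and Aurora kinases with the chromosomal passengers rose in cKO TFH cells, and in all 5 the cKO libraries were above the WT libraries. Birc5 encodes survivin, the passenger subunit that docks Aurora B on centromeres. It had 127, 115 and 124 FPKM in cKO TFH libraries and 63.2, 44.3 and 51.2 FPKM in WT TFH libraries. This was the smallest adjusted p among the members, at a log2 change of 1.20 ± 0.14 (limma adjusted p = 8.48e-05), and the call held in each of the 17 alternatives. Cdca8, which encodes borealin of the same complex, was at 70.9, 49.6 and 56.4 FPKM in cKO TFH libraries and 32.7, 24.2 and 39.9 FPKM in WT TFH libraries. Its log2 change was 0.86 ± 0.19 (limma adjusted p = 0.0057). The kinase genes Plk1, Aurka and Aurkb rose by 0.77 ± 0.24, 0.99 ± 0.32 and 0.73 ± 0.24 on the log2 scale, with limma adjusted p between 0.0286 and 0.0407, and each lost the call in 7 to 9 of 17 alternatives.

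Among the 6 genes of the spindle checkpoint and the APC/C, 3 rose in cKO TFH cells. Ube2c, the ubiquitin-conjugating enzyme of the APC/C, had 165, 141 and 151 FPKM in cKO TFH libraries, against 76.5, 58.3 and 97.8 FPKM in WT TFH libraries, with no overlap (log2 change 0.99 ± 0.20, limma adjusted p = 0.00301). The checkpoint protein gene Mad2l1 and the checkpoint kinase gene Ttk rose by 0.62 ± 0.13 and 0.61 ± 0.15. Cdc20 had 70.9, 65.5 and 75.2 FPKM in cKO TFH libraries and 45.8, 24.6 and 32.5 FPKM in WT TFH libraries. These groups did not overlap either, yet the log2 change of 1.06 ± 0.69 had a limma adjusted p of 0.279 in the fit over all 4 groups, which share 1 estimate of the spread. With only the 2 TFH groups in the fit the log2 change was the same and the limma adjusted p was 0.00763. Bub1 and Bub1b, kinases of the checkpoint, had log2 changes of 0.40 ± 0.25 and 0.64 ± 0.26 and did not pass.

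Of the 6 kinetochore and centromere genes, 3 rose in cKO TFH cells. Cenpa, the histone H3 variant that marks centromeres, was at 74.0, 55.1 and 66.8 FPKM in cKO TFH libraries and 51.3, 37.6 and 57.1 FPKM in WT TFH libraries. Here the groups overlapped, and the log2 change of 0.43 ± 0.18 did not pass (limma adjusted p = 0.0919). Spc25, a subunit of the NDC80 complex that holds microtubules, had 41.9, 32.3 and 47.5 FPKM in cKO TFH libraries and 27.4, 10.5 and 27.5 FPKM in WT TFH libraries. Every cKO library was above every WT library, with a log2 change of 0.97 ± 0.32 (limma adjusted p = 0.0384), though 8 of 17 alternatives lost the call. The kinetochore motor gene Cenpe and the complex's namesake Ndc80 rose by 0.84 ± 0.20 and 0.70 ± 0.22, with the Ndc80 call lost in 7 of 17 alternatives, while Cenpf and Nuf2, at 0.48 ± 0.29 and 0.77 ± 0.33, did not pass.

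The 9 genes of the spindle and of cytokinesis included 6 that rose in cKO TFH cells. Nusap1, a microtubule-bundling protein of the spindle, had 66.6, 38.2 and 37.8 FPKM in cKO TFH libraries, against 26.4, 13.2 and 27.7 FPKM in WT TFH libraries, and the groups did not overlap (log2 change 1.07 ± 0.29, limma adjusted p = 0.0153). Kif11, the motor that pushes spindle poles apart, had 34.1, 26.1 and 26.1 FPKM in cKO TFH libraries and 17.8, 11.9 and 20.2 FPKM in WT TFH libraries. Its groups did not overlap either (log2 change 0.78 ± 0.19, limma adjusted p = 0.00876). Kif2c, a microtubule-depolymerising kinesin, Tpx2, an activator of Aurora A, Hmmr, a spindle protein, and Anln, the anillin of the cleavage furrow, rose by 1.26 ± 0.27, 0.82 ± 0.16, 0.89 ± 0.26 and 1.11 ± 0.19, and the Hmmr call was lost in 8 of 17 alternatives. Kif4 and Prc1, which organise the central spindle, did not pass at 0.41 ± 0.25 and 0.67 ± 0.52. Kif20a did not pass either, at a limma adjusted p of 0.086, and without WT TFH replicate 2, where it is listed at 0, its log2 change was 0.85 with a limma adjusted p of 0.00941.

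Both of the 2 chromosome genes had positive changes in TFH cells, and only Top2a passed. Top2a, the topoisomerase that untangles sister chromatids, had 79.7, 58.0 and 63.1 FPKM in cKO TFH libraries and 32.5, 27.0 and 34.6 FPKM in WT TFH libraries (log2 change 1.06 ± 0.16, limma adjusted p = 0.000533). Mki67, whose protein Ki-67 coats mitotic chromosomes, had 18.9, 13.9 and 13.7 FPKM in cKO TFH libraries against 11.4, 11.1 and 8.83 FPKM in WT TFH libraries. Neither gene's groups overlapped, but the Mki67 change of 0.52 ± 0.20 on the log2 scale did not pass (limma adjusted p = 0.0692). A difference between the changes of Top2a and Mki67 was not tested.

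**Figure D3:**
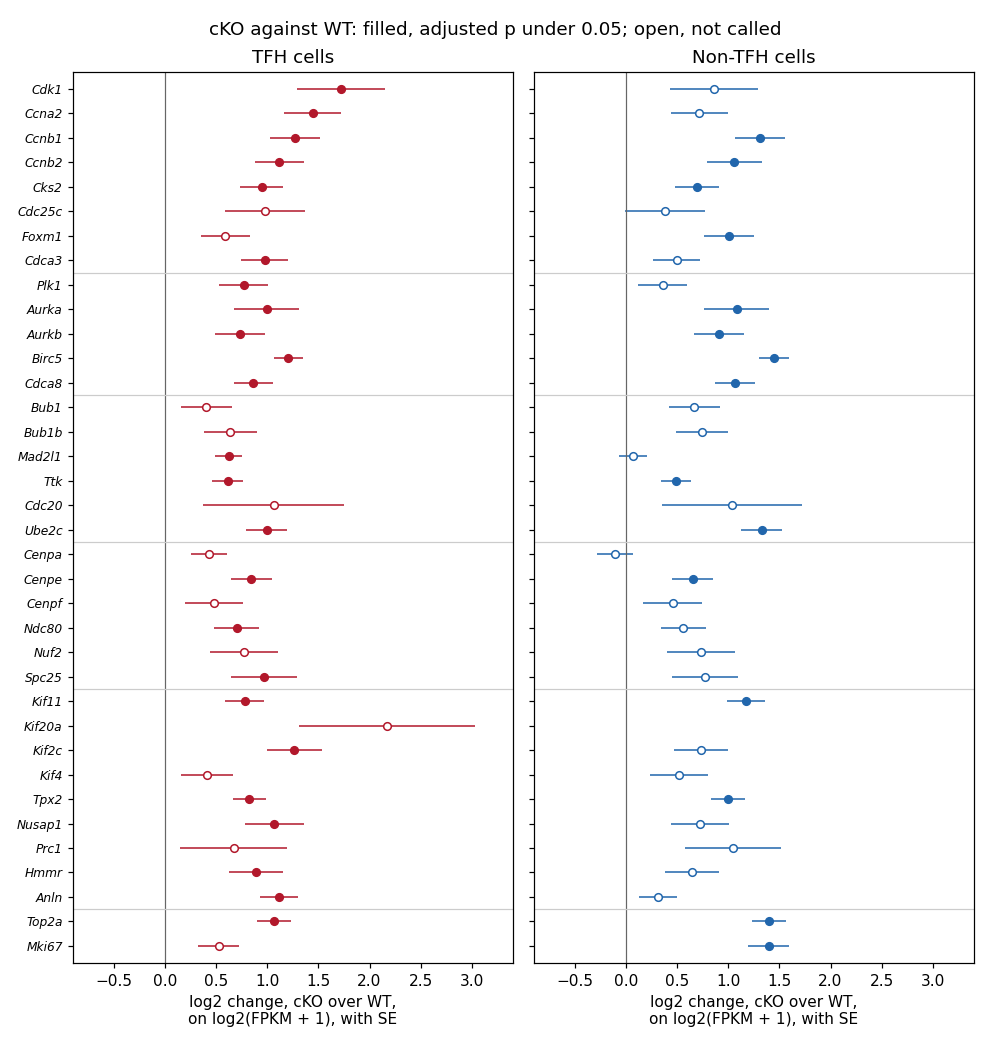
Log2 change, cKO over WT, of each member on the log2(FPKM + 1) scale in TFH cells (left) and non-TFH cells (right), with bars of 1 SE. Filled points passed the adjusted threshold of 0.05, 24 on the left and 15 on the right, and open points did not. Kif20a, listed at 0 in all non-TFH libraries, is left out on the right, and the Foxm1, Aurka, Cdc20 and Prc1 changes on the right include values listed at 0.

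Transcripts of other cell types also differed between the TFH groups. The 9 macrophage markers summed to 509.8 to 603 FPKM in cKO TFH libraries and 1364 to 2387 FPKM in WT TFH libraries, with 8 called lower and 1, Cd68, which is joined with Eif4a1, called higher. Without that joint entry the other 8 summed to 184 to 247 FPKM in cKO and 1144 to 2036 FPKM in WT TFH libraries. The 8 B cell markers summed to 113 to 147 FPKM in cKO TFH libraries and 267 to 293 FPKM in WT TFH libraries, with 5 of the 7 tested called lower, 1 of them Cd79a joined with Arhgef1, and without it the other 7 markers summed to 38.6 to 43.8 FPKM in cKO and 73.3 to 77.5 FPKM in WT TFH libraries. Neutrophil and myeloid precursor markers summed to 2.19 to 11.3 FPKM in cKO TFH libraries and 0 to 13.3 FPKM in WT TFH libraries, with none of 5 called. Germinal centre B cells divide fast, and of their markers Gcsam and Rgs13 were at most 0.679 FPKM in cKO TFH libraries and 0.403 FPKM in WT TFH libraries. Fas was not called, and Mef2b, joined with 2310045N01Rik, was called higher and was also at 20.2 to 27.0 FPKM in non-TFH libraries. Erythroid markers summed to 134 to 195 FPKM in cKO TFH libraries and 108 to 1969 FPKM in WT TFH libraries with none called, and Klf1, Slc4a1, Rhag and Car1 stayed under 1 FPKM in all 6. Plasma cell markers summed to 82.8 to 108 FPKM in cKO TFH libraries and 47.3 to 90.5 FPKM in WT TFH libraries, with Jchain called higher and Prdm1 called lower, and dendritic cell markers to 5.98 to 12.2 FPKM in cKO against 20.3 to 28.5 FPKM in WT TFH libraries, with 1 of 4 called lower. Both CD8 T cell markers, Cd8a and Cd8b1, were higher in cKO TFH cells, with sums of 37.9 to 46.8 FPKM against 7.53 to 12.3 FPKM in WT TFH libraries. The part of these cells in the members' values was not tested.

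The members also varied together within a group. WT TFH replicate 2 was the lowest of its group in 31 of 36 members, WT TFH replicate 3 the highest in 22 and replicate 1 in 14. In replicate 2 the median member stood at 10.98 FPKM, against 18.5 FPKM in replicate 1 and 20.7 FPKM in replicate 3. Among cKO TFH libraries, replicate 1 was the highest in 20 of the 35 members with 3 values, and replicate 2 the lowest in 23. The median coefficient of variation over members was 16.1% in cKO TFH cells, 29.3% in WT TFH cells, 24.9% in cKO non-TFH cells and 25.5% in WT non-TFH cells. Leaving out 1 TFH library at a time gave 17 to 28 members called.

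**Figure D4:**
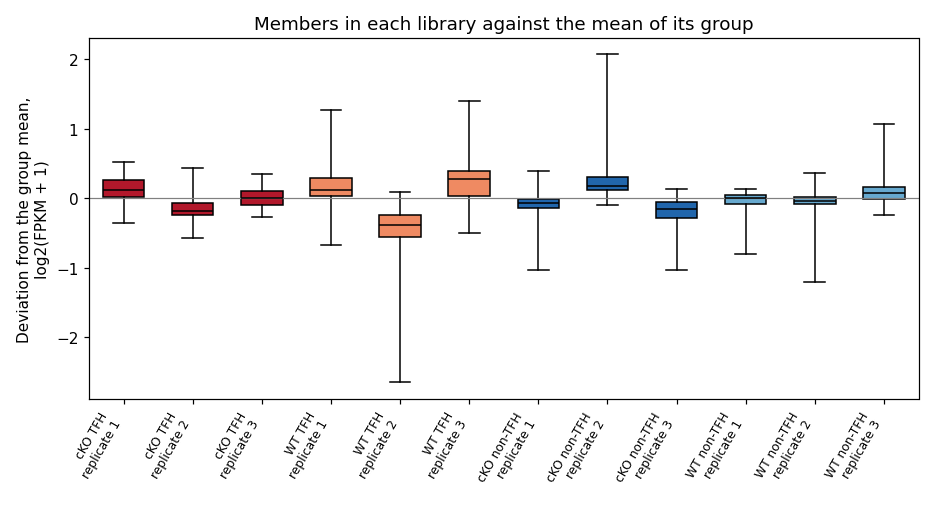
Deviation of the members from the mean of their group in each library, on the log2(FPKM + 1) scale, over the 35 or 36 members with 3 values in the group. Boxes span the middle quartiles with the median as a line, and whiskers reach the lowest and highest member. WT TFH replicate 2 lies lowest, with a median of -0.38, and WT TFH replicate 3 highest, with a median of 0.27.

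In non-TFH cells 15 of the 36 members were higher in cKO than in WT cells, 0 were lower and 21 did not pass. In this comparison 11.8% of all tested features were called higher and 8.58% lower, 20.4% in all. Only 22 of the 36 members met the filter in the non-TFH libraries alone, and the others met it only with TFH libraries counted. With the 2 non-TFH groups alone in the filter and fit, 15 of those 22 were called higher, where 36.5% of all tested features were called in either direction. Changes on the log2 scale ran from -0.11 to 1.44 with a median of 0.73, beside 0.03 over all tested features. Every cKO library was above every WT library in 29 of 36 members, against 29% of all tested features. The count was 8 without cKO non-TFH replicate 2, the highest of its group in 30 of 35 members, and 9 without WT non-TFH replicate 1. With a pseudocount of 0.1 in place of 1 it was 25, and with a pseudocount of 5 it was 7. In WT non-TFH cells the deposited lower confidence bound was above 0 in all libraries for only 18 of the 36 members, against 30 in cKO non-TFH cells.

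The 6 members that kept the call in every alternative in non-TFH cells were Birc5, Ube2c, Kif11, Tpx2, Top2a and Mki67. Birc5 was at 4.69, 5.27 and 3.89 FPKM in cKO non-TFH libraries and 1.16, 1.08 and 0.929 FPKM in WT non-TFH libraries, a log2 change of 1.44 ± 0.14 (SE, limma adjusted p = 2.22e-05). Top2a had 7.97, 11.3 and 7.88 FPKM in cKO non-TFH libraries against 2.99, 2.58 and 2.76 FPKM in WT non-TFH libraries (log2 change 1.40 ± 0.16, limma adjusted p = 8.06e-05). For Mki67, which did not pass in TFH cells, the values were 4.11, 6.16 and 3.60 FPKM in cKO non-TFH libraries and 1.02, 0.916 and 1.40 FPKM in WT non-TFH libraries (log2 change 1.39 ± 0.20, limma adjusted p = 0.000384). In all 3 genes the lowest cKO library was well above the highest WT library.

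Among the checkpoint and spindle genes, Ube2c had 4.36, 4.11 and 2.71 FPKM in cKO non-TFH libraries against 0.629, 0.820 and 1.18 FPKM in WT non-TFH libraries (log2 change 1.32 ± 0.20, limma adjusted p = 0.000548). Kif11 had 2.42, 2.92 and 2.63 FPKM in cKO non-TFH libraries against 0.704, 0.544 and 0.612 FPKM in WT non-TFH libraries (log2 change 1.17 ± 0.19, limma adjusted p = 0.000864). Tpx2 had 1.23, 1.90 and 1.38 FPKM in cKO non-TFH libraries against 0.240, 0.329 and 0.179 FPKM in WT non-TFH libraries (log2 change 0.997 ± 0.16, limma adjusted p = 0.000941). Kif11 and Tpx2 were the only called members among the 9 spindle and cytokinesis genes. Ttk, the second called gene of the checkpoint group, and Cenpe, the 1 called gene of the kinetochore group, were under 1.2 FPKM in every non-TFH library and lost the call in 11 and 9 of 16 alternatives.

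In the CDK1 group 4 of 8 genes were called higher in non-TFH cells and 4 did not pass. Ccnb1, at 2.20, 3.48 and 2.47 FPKM in cKO non-TFH libraries and 0.490, 0.403 and 0.570 FPKM in WT non-TFH libraries, rose by 1.31 ± 0.24 on the log2 scale (limma adjusted p = 0.00243). Ccnb2 rose by 1.06 ± 0.27, a call lost in 6 of 17 alternatives. Foxm1, with 1 WT library at 0, rose by 0.70 ± 0.19 with that value left out (limma adjusted p = 0.0201), and lost the call in 3 of 17 alternatives. Cks2 rose by 0.69 ± 0.21, with 12.6, 11.7 and 7.65 FPKM in cKO non-TFH libraries against 6.31, 7.09 and 5.01 FPKM in WT non-TFH libraries. The Cks2 call, at a limma adjusted p of 0.0408, was lost in 8 of 17 alternatives. Cdk1 was at 1.28, 2.07 and 0.917 FPKM in cKO non-TFH libraries and 0.414, 0.246 and 0.266 FPKM in WT non-TFH libraries, without overlap, but its log2 change of 0.86 ± 0.43 did not pass (limma adjusted p = 0.206). Ccna2, Cdc25c and Cdca3 did not pass either.

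In the kinase and passenger group, Aurkb and Cdca8 rose with Birc5, by 0.91 ± 0.24 and 1.07 ± 0.19, though Aurkb lost the call in 6 of 16 alternatives. Aurka, counted among the 15, had 2.38, 3.17 and 2.60 FPKM in cKO non-TFH libraries against 0, 0.851 and 1.89 FPKM in WT non-TFH libraries. With the zero left out its log2 change of 0.68 did not pass (limma adjusted p = 0.0707), and 11 of 17 alternatives lost the call. Plk1 did not pass. Plk1 had 1.76, 2.68 and 1.60 FPKM in cKO non-TFH libraries and 1.52, 0.916 and 1.61 FPKM in WT non-TFH libraries, which overlapped (log2 change 0.36 ± 0.24, limma adjusted p = 0.359). Cenpa and Mad2l1, the members with the highest means in WT non-TFH cells, did not pass. Cenpa had 13.2, 18.7 and 18.1 FPKM in cKO non-TFH libraries and 16.2, 18.3 and 19.1 FPKM in WT non-TFH libraries, and Mad2l1 7.09, 7.45 and 7.31 FPKM in cKO against 6.64, 6.62 and 7.51 FPKM in WT libraries. Both overlapped, with log2 changes of -0.11 ± 0.18 and 0.07 ± 0.13, and the sign of Cenpa turned to 0.04 without cKO non-TFH replicate 1.

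Other cell types' transcripts moved in the non-TFH groups too. The 5 neutrophil and myeloid precursor markers summed to 40.2 to 53.3 FPKM in cKO non-TFH libraries and 15.4 to 120.1 FPKM in WT non-TFH libraries, with Mpo (2.43 to 3.46 FPKM in cKO against 0.553 to 1.06 FPKM in WT libraries) and Elane (1.37 to 2.22 FPKM in cKO against 0.365 to 0.699 FPKM in WT libraries) called higher. Of 3 plasma cell markers tested, Jchain and Xbp1 were called higher, at 46.3 to 61.6 FPKM summed over 5 markers in cKO non-TFH libraries and 20.03 to 20.7 FPKM in WT non-TFH libraries, while Prdm1 was not called, at 3.15 to 3.91 FPKM in cKO and 2.22 to 2.30 FPKM in WT non-TFH libraries. The untested Sdc1 was at 0.252 to 0.481 FPKM in cKO and 0.0680 to 0.0916 FPKM in WT non-TFH libraries, and Tnfrsf17 at 0.116 to 0.688 FPKM in cKO and at 0 in WT non-TFH libraries, so both were higher in every cKO library. Macrophage markers summed to 326 to 330.1 FPKM in cKO and 268 to 281 FPKM in WT non-TFH libraries, or 26.5 to 38.4 FPKM in cKO and 12.8 to 21.8 FPKM in WT non-TFH libraries without the joint Cd68 entry, with 4 of 9 called higher. Erythroid markers summed to 19.8 to 82.7 FPKM in cKO and 7.70 to 20.7 FPKM in WT non-TFH libraries, with none of 6 called and Gata1 at 11.04 to 13.1 FPKM in cKO and 4.22 to 8.62 FPKM in WT non-TFH libraries. Cd8b1 was called higher, at 95.7 to 107 FPKM in cKO and 9.87 to 14.6 FPKM in WT non-TFH libraries, whereas Cd8a stayed under 0.4 FPKM. B cell markers, of which 6 of 8 were under 1 FPKM in every cKO and every WT non-TFH library, had 1 of 7 called lower, the joint entry of Cd79a and Arhgef1, and summed to 415 to 455 FPKM in cKO and 704 to 747 FPKM in WT non-TFH libraries. Without that joint entry the other 7 summed to 2.52 to 3.24 FPKM in cKO and 1.25 to 2.75 FPKM in WT non-TFH libraries. Gcsam and Rgs13 were at most 0.0225 FPKM in cKO and at 0 in WT non-TFH libraries, and all 5 dendritic cell markers at most 2.43 FPKM in cKO and under 1 FPKM in WT non-TFH libraries. The part of these cells in the members' values was not tested.

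Relative and absolute differences ranked the cell types in opposite ways in most members. The difference of mean FPKM between cKO and WT cells was larger in TFH than in non-TFH cells in 36 of 36 members. All 36 were at higher levels in TFH cells, where an equal ratio gives a larger difference. For this count the share over all tested features was not taken. As a ratio of means, cKO over WT, the median over the 31 members with no zero was 1.86 in TFH cells and 3.64 in non-TFH cells, and the ratio was larger in non-TFH cells in 23 of 31. The largest non-TFH ratio, 12.8 for Ttk, rests on WT levels of 0.0516, 0.0260 and 0.0282 FPKM. The interaction of genotype and cell type, on the log2(FPKM + 1) scale, was called in 0 of 36 members, with 3 at an unadjusted p under 0.05, while 17.4% of all tested features were called, 6.9% higher and 10.5% lower. Those 3 were Mki67 at -0.87 ± 0.28 (limma adjusted p = 0.0565), Anln at 0.80 ± 0.26 (0.0585) and Mad2l1 at 0.55 ± 0.19 (0.0683), chosen after their values were seen. The median interaction was 0.05 with a pseudocount of 1, -0.61 with a pseudocount of 0.1 and 0.39 with a pseudocount of 5. Without WT TFH replicate 2 it was -0.21 and without cKO non-TFH replicate 3 it was -0.04, so its direction over the members depends on how low values are treated and on single libraries.

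**Figure D5:**
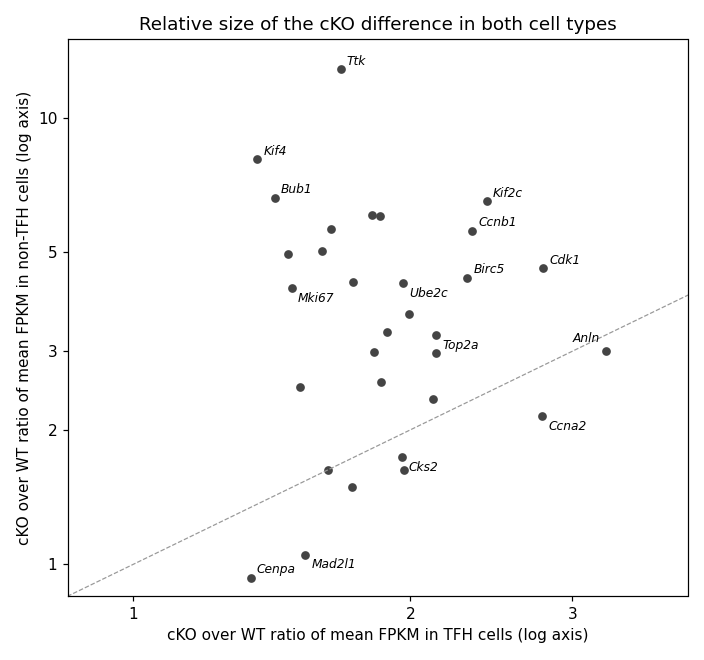
Ratio of mean FPKM, cKO over WT, in TFH cells (horizontal, log axis) and non-TFH cells (vertical, log axis) for the members with no zero in any group, with some members named. The dashed line marks equal ratios. Points lie above the line in 23 of 31 members, and Cenpa and Mad2l1 stand at the bottom, with non-TFH ratios of 0.932 and 1.05.

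All 36 members were higher in TFH than in non-TFH cells in cKO mice, and all 36 in WT mice. Kif20a and Cdc20 are counted there with their zeros. With values listed at 0 treated as missing, 34 members were tested, and all 34 were called higher in both genotypes. Only 22 of the 36 members met the filter in the non-TFH libraries alone. The others were kept through TFH libraries, where they are high, so for them the filter itself favours this direction. Over all tested features 33.4% were called higher in TFH cells in cKO mice and 35.2% in WT mice, out of 67.1% and 67.5% called in either direction. Without scaling between libraries, 4575 features were higher and 3001 lower in cKO mice, where scaled values gave 3708 and 3734, and in WT mice 4961 were higher and 2722 lower, where scaled values gave 3905 and 3578. Every TFH library was above every non-TFH library in 36 members in cKO mice and in 35 in WT mice, against 36.8% and 37.1% of all tested features. The exception was Kif20a, with its zero in WT TFH replicate 2. The median log2 change over the members was 3.17 in cKO mice and 3.08 in WT mice. Ratios of mean FPKM, TFH over non-TFH, had a median of 15.01 over 34 members in cKO mice and 26.8 over 31 members in WT mice.

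The ratio was largest in cKO mice for Cdk1, at 45.5, and smallest for Foxm1, at 2.87, and Mki67 had 3.35. In WT mice it ran from 2.72 for Cenpa to 106 for Kif4, whose WT non-TFH levels were 0.101 and 0.0314 FPKM in the 2 libraries with an entry. Birc5 had the smallest adjusted p in both genotypes, with log2 changes of 4.46 ± 0.14 in cKO mice (limma adjusted p = 5.39e-10) and 4.70 ± 0.14 in WT mice (limma adjusted p = 4.25e-10). In 35 of 36 members every WT TFH library was above every cKO non-TFH library, a pair of groups that differs in genotype as well as cell type. For this pair the share over all tested features was not counted. The exception among the members was again Kif20a. The gap was smallest for Anln, with 1.39, 1.07 and 0.597 FPKM in WT TFH libraries against 0.275, 0.591 and 0.399 FPKM in cKO non-TFH libraries.

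Genes of the same machinery outside the 36 were read from 7 lists with 146 tested genes. Of these, 50 were higher and 3 lower in cKO than in WT TFH cells, with a median log2 change of 0.41, and 27 were higher and 4 lower in non-TFH cells, with a median of 0.24. Over all tested features 15.8% were higher and 15% lower in TFH cells and 11.8% and 8.58% in non-TFH cells, and some lists below lie near these shares. The list of other kinetochore genes had 11 higher and 1 lower of 31 in TFH cells, among them Spc24, the partner of Spc25, at 38.8 ± 4.5 FPKM in cKO TFH cells and 16.5 ± 3.0 FPKM in WT TFH cells (SD, n = 3 each; log2 change 1.19). Cytokinesis and passenger genes had 8 of 16 higher and 0 lower, with Pbk, a mitotic kinase, at 33.5 ± 0.52 FPKM in cKO TFH cells and 14.7 ± 2.2 FPKM in WT TFH cells (SD, n = 3 each). The 26 other spindle genes had 6 higher and 0 lower, with Kif22, a chromosome-arm motor, at a log2 change of 1.02, and condensin and cohesin genes had 6 of 18 higher and 0 lower, with the condensin subunit Ncaph at 1.43. Other checkpoint and APC/C genes had 6 of 21 higher and 0 lower, with Ube2s, which extends ubiquitin chains on APC/C substrates, at 0.97. Among B-Myb, MuvB and E2F genes, 5 of 16 were higher, E2f8 at 1.11, and 1 lower, the pocket protein gene Rbl2 at -0.72.

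The CDK controls had 8 of 18 higher and 1 lower in cKO TFH cells. Cdkn1a, which encodes the CDK inhibitor p21, had 83.8, 40.6 and 75.4 FPKM in cKO TFH libraries and 4.97, 5.53 and 3.46 FPKM in WT TFH libraries, a log2 change of 3.53 ± 0.29 (SE, limma adjusted p = 6.64e-06). Every cKO library was far above every WT library. Cdkn2c, encoding the inhibitor p18, rose as well, by 1.18 ± 0.19. S phase genes had 7 of 19 higher and 1 lower with a median of 0.46 in TFH cells, and 6 higher and 0 lower with a median of 0.55 in non-TFH cells. Cyclin E1 (Ccne1), of the entry into S phase, was at 16.9 ± 5.7 FPKM in cKO TFH cells and 3.53 ± 0.51 FPKM in WT TFH cells (SD, n = 3 each; log2 change 1.94). Of 12 genes of G1 cyclins and quiescence, 2 were higher and 3 lower in cKO TFH cells, among the lower ones Klf2, a factor of resting T cells, at -1.19, a call lost in 9 of 17 alternatives.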

How the data were processed

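Poly(A) RNA from 12 sorted splenic CD4 T cell samples was isolated with Trizol, treated with DNase I and sequenced from TruSeq stranded libraries, per the labels' protocols. Per the submitters' processing notes the tools were Cufflinks, Cuffdiff, TopHat2, Bowtie2, cutadapt and FastQC, with no role given, and the build was mm10. The authors deposited 1 gene table per library in FPKM, with confidence bounds. FPKM are not counts and read totals are not given, so no count model was used.

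Features were matched by name, giving 22427 genes with their own entry and 785 joint entries. FPKM were scaled by median ratios over 7088 features (factors 0.856 to 1.14), and log2(FPKM + 1) was tested with limma 3.58.1 in R 4.3.3 with trend and robust moderation, group means over all 12 libraries and Benjamini-Hochberg adjustment over the 11088 features with at least 1 FPKM in 3 or more libraries. Log2 changes on this scale understate the change of low genes. In simulated data for cKO against WT in TFH cells, with 200 of 9982 genes changed by 1 on the log2 scale, the fit recovered 68% of them. It recovered 79% for cKO against WT in non-TFH cells and 45.5% for the interaction. The changed genes were drawn from those with higher mean levels, so recovery of low genes was not measured. Tables and figures used Python 3.11.15, pandas 2.3.3, numpy 2.4.6 and matplotlib 3.10.9. The members and the gene lists were chosen with earlier results of these data known. Given in full were, per role group, the 2 members with values in every library and the highest mean level, and those whose call in cKO against WT differed from most of their group; of each other list, up to 3 called genes with the largest change in TFH cells could be named. Other genes named were chosen after their values were seen. Alternatives changed the scaling, pseudocount, filter, model and libraries. The levels of some marker genes are not reported here.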

Additional observations from a re-analysis of the deposited data

Results flagged for a closer look

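No member's change between cKO and WT cells was called as differing between TFH and non-TFH cells, with 17.4% of all tested features called by the limma interaction test. In the 7 other mitosis lists 16 of 146 genes were called higher and 5 lower. Their share called in either direction was not above that 17.4%. The share called higher was above the 6.9% of all tested features, and the share called lower was below their 10.5%. The differences between these shares were not tested. Of the 27 genes named from the other lists for their large change in TFH cells, 11 called genes are described below. Cenpu was called as well, at an interaction of 1.52 (limma adjusted p = 0.000457). It was listed at 0 in every library outside cKO TFH cells. Choosing genes by their TFH change favours an interaction, since the interaction uses the same change, so these values are a description. The interaction is the log2 change, cKO over WT, in TFH cells minus that in non-TFH cells. It was positive for the CDK inhibitor genes Cdkn1a, at 1.79 (limma adjusted p = 0.0115), and Cdkn2c, at 1.07 (limma adjusted p = 0.0166). With a pseudocount of 0.1 the Cdkn1a interaction was 0.25 and was no longer called. Among genes of the APC/C and its regulators it was 1.38 for Fbxo5, 1.06 for Anapc11, which is joined with Npb, and 0.97 for Ube2s (limma adjusted p = 0.00215, 0.00179 and 0.0291). Kif22 had 1.44 and the condensin gene Ncaph 0.99 (limma adjusted p = 0.0022 and 0.0111). Cyclin E1, Ccne1, had 1.01 (limma adjusted p = 0.0362). The Fbxo5, Anapc11 and Kif22 calls held in all 23 alternatives, while that of Ube2s was lost in 7 and that of Ccne1 in 12. The interaction was negative for the pocket protein gene Rbl2, at -1.20, and for the quiescence-associated factors Klf2, at -2.37, and Klf4, at -4.85 (limma adjusted p = 0.00757, 0.0118 and 0.00873). Klf4 was at 0.63, 0.18 and 0.28 FPKM in cKO TFH libraries and 7.86, 8.09 and 3.85 FPKM in WT TFH libraries, but at 38.8, 3.43 and 3.17 FPKM in cKO non-TFH libraries and 0.57, 0.31 and 1.35 FPKM in WT non-TFH libraries.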

How the results depend on the processing

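The 24 members called in TFH cells became 16 to 29 under the alternatives and 17 to 28 when 1 library was left out, with a median log2 change of 0.71 to 1.01 without 1 library, and 14 of the 24 held throughout. In non-TFH cells the 15 calls became 9 with quantile normalization, 25 and 7 with pseudocounts of 0.1 and 5, 8 with no filter, 29 with array weights and 8 to 13 without 1 library. The median of 0.73 became 0.48 with quantile normalization, 1.63 and 0.28 with those pseudocounts, 1.001 with 2 groups alone and 0.61 to 0.88 without 1 library. The members' median for TFH over non-TFH cells, 3.17 in cKO and 3.08 in WT mice, was 3.87 and 4.47 with a pseudocount of 0.1, 2.12 and 1.72 with 5, 3.42 in cKO mice without scaling, and 3.07 to 3.32 and 2.90 to 3.24 without 1 library; 36 members in cKO and 35 to 36 in WT mice stayed called without 1 library. Without scaling the median of all features in this comparison was 0.27 in cKO and 0.37 in WT mice. Interaction calls, 0 as reported, were 1 with quantile normalization, 4 and 3 with pseudocounts of 0.1 and 5, 1 with array weights, 2 without trend and robust moderation, and 0 to 3 without 1 library (1 each without cKO TFH 1, cKO non-TFH 2 or cKO non-TFH 3, 3 without WT TFH 1, 2 without WT TFH 3). The interaction median of 0.05 was -0.61 with a pseudocount of 0.1 and -0.21 to 0.19 without 1 library. Calls in the 7 mitosis lists outside the members, 53 in TFH cells, were 28 with no filter, 28 with array weights and 39 to 52 without 1 library; the 31 in non-TFH cells were 16 with a pseudocount of 5, 18 with no filter, 63 with array weights and 18 to 27 without 1 library (18 without cKO non-TFH 2, 20 without WT non-TFH 2). Cenpa in non-TFH cells was -0.19 to 0.043 without 1 library, the positive value without cKO non-TFH replicate 1. The cause of these shifts was not tested. Treating values listed at 0 as missing, chosen after seeing the data, gave 25, 14, 34, 34 and 0 calls in the 5 comparisons. The labels do not say whether replicate numbers pair the samples. Deviations of same-numbered libraries had correlations of -0.03 to 0.06, which cannot settle it, since paired libraries can share little deviation. The Y-linked Ddx3y was at 0 in all cKO TFH libraries, against 41.6, 44.6 and 40.4 FPKM in cKO non-TFH libraries. In WT replicates 2 and 3 it was at 2.21 and 5.25 FPKM in TFH and 68.0 and 51.8 FPKM in non-TFH libraries. Same-numbered libraries thus differed in this gene, and the block by genotype and number need not group libraries of 1 mouse. The replicate block by number gave 23, 13, 36, 36 and 0 calls, and the block by genotype and number gave 36, 36 and 0 for the last 3. Levels under 1 FPKM, where 23 members lie in WT non-TFH cells, limit the non-TFH ratios.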
